A study of Homo sapiens with 9 samples.

Results

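The HIF prolyl hydroxylases EGLN1, EGLN2 and EGLN3 (also called PHD2, PHD1 and PHD3), the asparaginyl hydroxylase FIH (gene HIF1AN) and the ubiquitin ligase subunit VHL form the oxygen-sensing arm that restrains HIF-1α, and HIF-1α binding was examined around their 5 genes. The genes were taken as 1 window each on hg19: chromosome 1: 231480000 to 231580000 for EGLN1 (100 kb), chromosome 19: 41290000 to 41330000 for EGLN2 (40 kb), chromosome 14: 34300000 to 34500000 for EGLN3 (200 kb), chromosome 10: 102280000 to 102330000 for HIF1AN (50 kb) and chromosome 3: 10160000 to 10220000 for VHL (60 kb). A peak summit was counted for a gene if it lay inside the window, and which gene it lies nearest to was not measured. No hg19 annotation was used here, so whether each window covers the whole of its gene was not checked, and every count is of the window as set. The windows held 26 of 16463 called summits, which fell into 14 of 9420 regions, a region being a set of intervals from any list that share at least 1 bp.

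HIF-1α on chromatin was mapped by immunoprecipitation and sequencing (ChIP-seq) in the neuroblastoma line SK-N-BE(2), of human origin and known for its amplified MYCN. The groups were cells kept 48 hours at 1% oxygen (hypoxia, 3 libraries) and cells kept 48 hours at 21% oxygen (normoxia, 3 libraries), both otherwise untreated in the labels, beside 3 input libraries from 21% oxygen that were not analysed here. The comparison addresses where HIF-1α sits on chromatin when oxygen is low. All cells were of 1 line, and the labels name no separate cultures, so a p-value here reflects the spread among libraries, part or all of which may be technical.

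As background, prolyl hydroxylases use oxygen to mark HIF-α for VHL, which hands it to the proteasome, while FIH hydroxylates an asparagine that HIF-α needs to bind its coactivators. When oxygen is short these reactions slow, HIF-1α builds up, pairs with ARNT and binds DNA at the core motif ACGTG or GCGTG. EGLN1 and EGLN3 are known hypoxia-induced genes in many cell types, a feedback in which HIF raises its own inhibitors.

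The stretch of 250 bases before the annotated start is shown for the 3 prolyl hydroxylase genes because HIF-1 is known to bind the core motif, with any match on either strand in capitals. The sequences are from RefSeq on GRCh38.p14, on the strand of the gene. They span chr1:231422288-231422537 on the minus strand for EGLN1, chr14:33951075-33951324 on the minus strand for EGLN3, and chr19:40798941-40799190 on the plus strand for EGLN2. These positions were not converted to hg19, so they are not set against the positions of the peaks here.
EGLN1: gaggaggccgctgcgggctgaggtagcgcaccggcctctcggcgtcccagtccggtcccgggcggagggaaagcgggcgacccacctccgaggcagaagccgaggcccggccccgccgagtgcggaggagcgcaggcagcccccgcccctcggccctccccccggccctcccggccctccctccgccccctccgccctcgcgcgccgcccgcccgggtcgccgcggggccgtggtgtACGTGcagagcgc
EGLN3: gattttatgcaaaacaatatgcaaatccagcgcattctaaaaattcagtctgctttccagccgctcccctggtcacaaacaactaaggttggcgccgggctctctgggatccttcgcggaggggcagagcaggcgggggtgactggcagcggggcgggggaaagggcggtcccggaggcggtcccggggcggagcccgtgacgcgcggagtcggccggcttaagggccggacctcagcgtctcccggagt
EGLN2: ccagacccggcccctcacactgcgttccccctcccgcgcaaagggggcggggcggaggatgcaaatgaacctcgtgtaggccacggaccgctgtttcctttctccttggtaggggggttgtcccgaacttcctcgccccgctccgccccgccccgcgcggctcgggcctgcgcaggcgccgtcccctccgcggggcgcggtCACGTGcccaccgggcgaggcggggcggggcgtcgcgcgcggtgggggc

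The EGLN1 stretch held 1 match, ACGTG on the gene's strand at 13 to 9 bases before the start. The EGLN2 stretch held ACGTG on both strands in 1 palindrome, CACGTG, which is also the core of the E-box that MYC proteins are known to bind. The EGLN3 stretch, a second EGLN2 start and the HIF1AN stretch held neither motif. Of the genes with a stretch, EGLN1 had a match and a replicated call in its window, and EGLN2 had a match and no call in its window. The EGLN3 window, with the strongest site, and the HIF1AN window had replicated calls, and the stretches of these genes held no match. Which gene a call belongs to was not measured. Calls were counted over whole windows and matches over short stretches on another build. Whether a match lies under a call was therefore not tested. The table had entries for 4 of the 5 genes; VHL is named only. Of 35116 such stretches in the table, 18.5% held ACGTG, 43.2% held ACGTG or GCGTG, and 6.34% held CACGTG. The matches are given as a description, and whether any of them is bound was not tested.

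The hypoxia libraries had calls in the windows of EGLN3, EGLN1, HIF1AN and VHL and none in that of EGLN2. The normoxia libraries had a single call, in the EGLN3 window. By the number of hypoxia libraries with a summit in the window, the order was EGLN3 with all 3, then EGLN1 and HIF1AN with 2 each, VHL with 1 and EGLN2 with 0. In equal windows tiled over the genome, a summit in all 3 hypoxia lists stood in 6.2% of 200 kb windows, a summit in at least 2 hypoxia lists in 10.9% of 100 kb windows and 5.89% of 50 kb windows, a summit in at least 1 hypoxia list in 12.9% of 60 kb windows, and no summit in any list in 90.8% of 40 kb windows. These shares include gene-poor stretches, and the windows of the 5 genes were chosen with earlier results of these data known, so the shares are a scale and not a test.

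Among the 14 regions, 6 (42.9%) were called in at least 2 hypoxia lists, against 43.9% of all 9420 regions, a share near the background. 1 of the 14 (7.14%) was called in all 3 hypoxia lists, against 11.5% of all regions, and 1 of the 14 (7.14%) had a normoxia call, against 1.46% of all regions. Both of these are the same site, at EGLN3. 5 of the 14 (35.7%) were called in hypoxia 2 and hypoxia 3 but not hypoxia 1, against 31.7% of all regions. Of the hypoxia lists, hypoxia 3 alone called 7 (50%), against 36.8% of all regions, and hypoxia 2 alone called 1 (7.14%), against 17.9%.

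**Figure D1:**
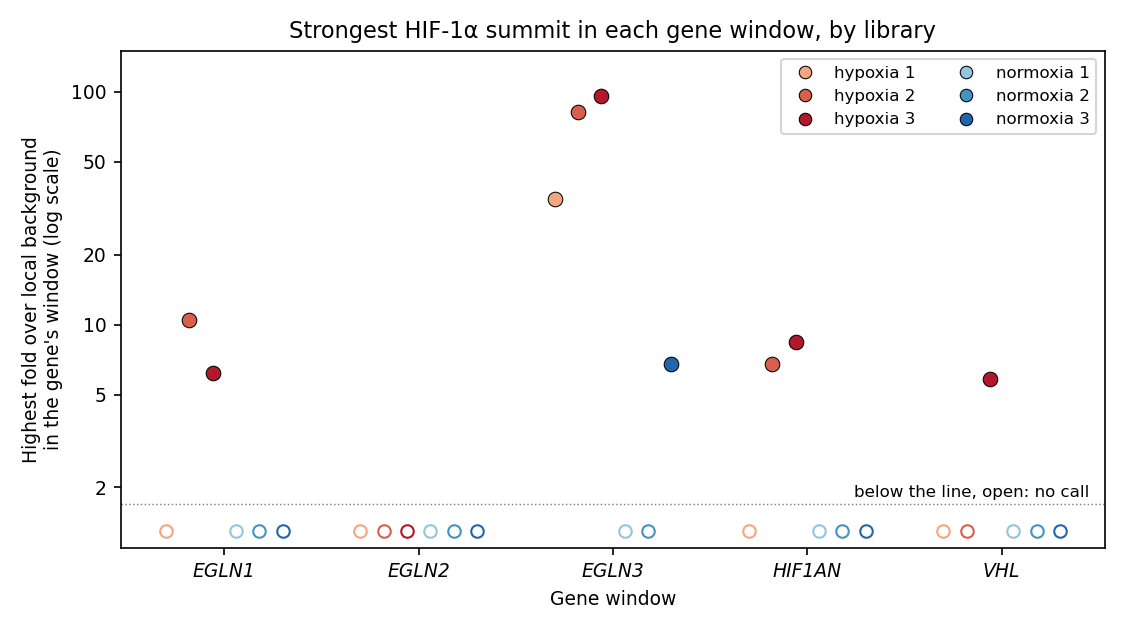
Highest fold over local background in each gene's window (log axis), with 1 point per library, hypoxia libraries left of normoxia libraries in each gene; open circles below the dotted line mark libraries without a call. EGLN3 is the only one of the 5 windows with a filled point for each hypoxia library and with a normoxia call, and EGLN2 has open circles alone; folds are ratios within a list and not on 1 scale across libraries.

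The lists differ in ways that bear on every value below. The fragment extension behind the peak calls is not stated and was taken as the shortest interval of each list. It was 48, 155 and 167 bp in the hypoxia libraries (numbers 1 to 3) and 46 to 47 bp in the normoxia libraries. Depth, which rests on this extension, was 5.31 to 6.62 background reads per kb in hypoxia and 6.02 to 6.69 in normoxia. A longer extension gathers more reads over each base, so reads at a summit can be set side by side only within hypoxia 2 and 3, or within hypoxia 1 and the normoxia libraries. Hypoxia 1, 2 and 3 had lists of 1408, 5833 and 7619 intervals, and normoxia 1, 2 and 3 had lists of 75, 32 and 109. Over an average stretch of the genome, at the weakest p that the list holds, a call needed 5, 7 and 6 reads in hypoxia 1, 2 and 3 and 6 reads in each normoxia library.

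EGLN3 encodes the prolyl hydroxylase whose gene is known to be strongly induced by hypoxia in many cells. Its window held the strongest site by far, chromosome 14: 34407289 to 34408153, an 865 bp region. The authors' fold over local background at its strongest summit was 34.6, 81.6 and 96 in hypoxia 1, 2 and 3, against 6.76 in normoxia 3 and no call in normoxia 1 and normoxia 2. The reads behind these folds were 49, 184 and 191 in hypoxia 1, 2 and 3 (exact Poisson 95% intervals 36.3 to 64.8, 158 to 213 and 165 to 220), against 8 in normoxia 3 (3.45 to 15.8). These intervals cover counting error only. Because of the extensions, only the 49 reads of hypoxia 1 can be set against the 8 of normoxia 3. Against its own list the site was high in every hypoxia library, and the normoxia 3 call was not.

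Within its list the site ranked 3 of 1408 intervals by fold in hypoxia 1, 13 of 5833 in hypoxia 2 and 12 of 7619 in hypoxia 3, above 99.8% of each list, whereas in normoxia 3 it ranked 61 of 109. Its −log10 q was 75, 316 and 351 in hypoxia 1, 2 and 3 and 4.46 in normoxia 3. The intervals were also long, 668, 822 and 854 bp in hypoxia 1, 2 and 3 against medians of 111, 246 and 259 bp over these lists, and 104 bp in normoxia 3 against a median of 105 bp. Local background at the strongest summit was 1.4, 1.38 and 1.13 times the genome-wide value of the library in hypoxia 1, 2 and 3 and 1.13 times in normoxia 3.

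Hypoxia 1 and normoxia 3 have nearly the same extension, and reads per unit of depth were 5.79 times as many in hypoxia 1 as in normoxia 3 (exact 95% interval 2.72 to 14.2, counting error only). Over the 72 low-background regions called in both lists the median ratio was 1.61, and 94.4% of them had a lower ratio than the EGLN3 site. This compares single libraries, so it has no replicate check. The hypoxia 1 reads, scaled to the depth of normoxia 1, 2 and 3, would be 49.5, 44.5 and 46.3, which is 8.25, 7.42 and 7.72 times the 6 reads needed for a call. The number needed is for an average local background, and the scaling takes only depth into account. Why normoxia 1 and normoxia 2 had no call at the site was not tested. The 8 reads of normoxia 3 scale to 8.55 in normoxia 1 and 7.69 in normoxia 2, above the 6 needed but with 6 inside their counting interval, so a signal at the level of normoxia 3 was not reliably detectable in these libraries.

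The summits of the 3 hypoxia libraries fell close together, at 34407725, 34407706 and 34407722 in hypoxia 1, 2 and 3. Hypoxia 1 and hypoxia 3 differed by 3 bp, against a median of 45 bp over 1134 shared regions, and hypoxia 2 and hypoxia 3 by 16 bp, against a median of 26 bp over 4074. The normoxia 3 summit, at 34407618, lay 107 bp below that of hypoxia 1 and 104 bp below that of hypoxia 3. Its interval ended at 34407701, before any of the hypoxia summits named. Of the 76 regions shared by hypoxia 1 and normoxia 3, 76.3% had a smaller gap between the summits, with a median of 34 bp, so a gap of this size was not rare. The reads of hypoxia 1 and normoxia 3 were therefore counted at different bases of the site.

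Hypoxia 1 reported 3 summits within the site. The first, at 34407432, had 7 reads and a fold of 5.71. The middle one is the strongest, given above. The last, at 34407816, had 39 reads and a fold of 14.9, 91 bp above the strongest and over a local background that was 5.3 times that of the whole library. Hypoxia 2 and hypoxia 3 each reported 1 summit over the same stretch. Intervals with 3 or more summits made up 9.52% of the hypoxia 1 list and 0.309% and 0.381% of the hypoxia 2 and hypoxia 3 lists, against 1.33%, 9.38% and 11% of the normoxia 1, 2 and 3 lists.

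**Figure D2:**
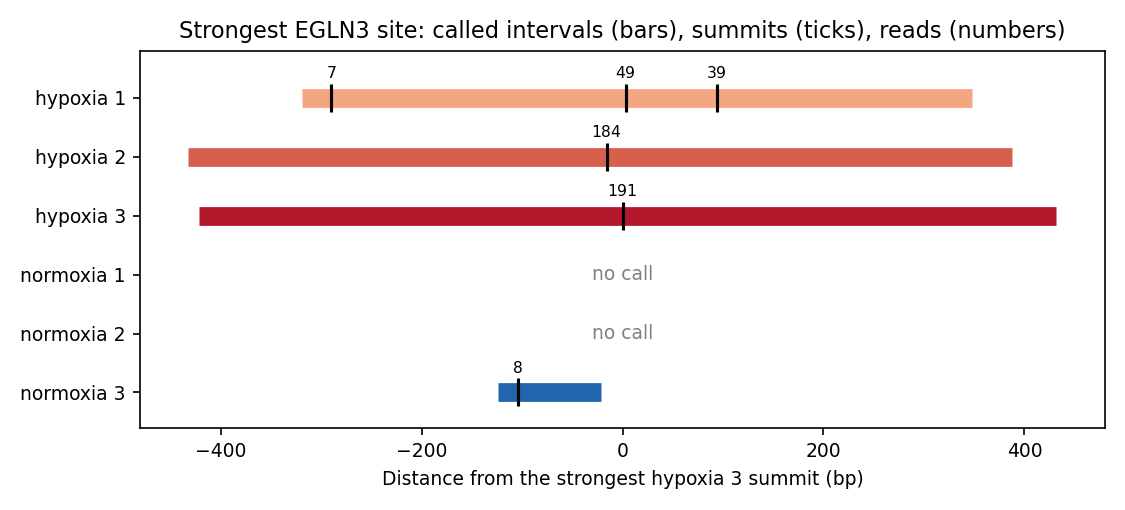
Called intervals (bars), summits (ticks) and reads at each summit (numbers) of the strongest EGLN3 site, by library from hypoxia 1 at the top to normoxia 3 at the bottom, against distance in bp from the hypoxia 3 summit. The strongest hypoxia summits lie within 19 bp of each other, and the normoxia 3 interval covers only the low side of the site, with its summit 104 bp below that of hypoxia 3.

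Around this site the EGLN3 window held 8 weaker regions, so that 9 regions spanned 38.2 kb. Counting every summit, the window had 3, 4 and 9 in hypoxia 1, 2 and 3, against 0, 0 and 1 in normoxia 1, 2 and 3. All hypoxia counts lay above all normoxia counts, which was so in 5.87% of 200 kb windows of the genome. Hypoxia libraries averaged 5.33 ± 3.21 summits and normoxia libraries 0.333 ± 0.577 (SD, n = 3 each). A two-sided exact permutation test returned p = 0.1, and 3 libraries a group cannot give less. With each interval counted once, hypoxia 1 and normoxia 3 tied at 1 and the exact permutation p was 0.2. Without hypoxia 3 the difference in means of 5 summits became 3.17. By libraries with a call, EGLN3 had 3 of 3 in hypoxia and 1 of 3 in normoxia (two-sided exact permutation p = 0.4); a summit in a normoxia list stood in 0.776% of 200 kb windows.

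Of the 8 weaker EGLN3 regions, those called in both hypoxia 2 and hypoxia 3 were chromosome 14: 34394472 to 34394890 and 34423320 to 34423740. At the first, at smaller coordinates than the strongest site, the fold was 4.19 in hypoxia 2 and 6 in hypoxia 3, from 11 reads in each. At the second it was 6.57 in hypoxia 2, from 17 reads, and 5.83 in hypoxia 3, from 10 reads. Their summits lay 13.2 and 15.9 kb from the strongest hypoxia 3 summit in hypoxia 2, and 13.1 and 15.7 kb in hypoxia 3, on opposite sides. The hypoxia 2 and hypoxia 3 summits were 107 and 196 bp apart at these regions, wider than at 90.9% and 97.9% of shared regions. With the strongest site this made 3 regions called in at least 2 hypoxia lists, and 1.88% of 200 kb windows held as many.

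The remaining 6 regions of the EGLN3 window were each called in 1 library. Hypoxia 2 alone called 34412390 to 34412554, with 10 reads and a fold of 4.22. Hypoxia 3 alone called 34402708 to 34403156, 34419677 to 34419906, 34420253 to 34420419, 34429066 to 34429232 and 34432513 to 34432708. Their strongest summits had 12, 8, 9, 7 and 13 reads and folds of 6.89, 4.77, 5.3, 4.24 and 7.42. All 11 summits outside the strongest site had 7 to 17 reads and folds of 4.19 to 7.42, and in hypoxia 2 and hypoxia 3 none of these summits reached more than 9.24% of the reads at the strongest site. They lay 4.65 to 24.9 kb from it. Local background was 1 to 2.03 times the genome-wide value at them.

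**Figure D3:**
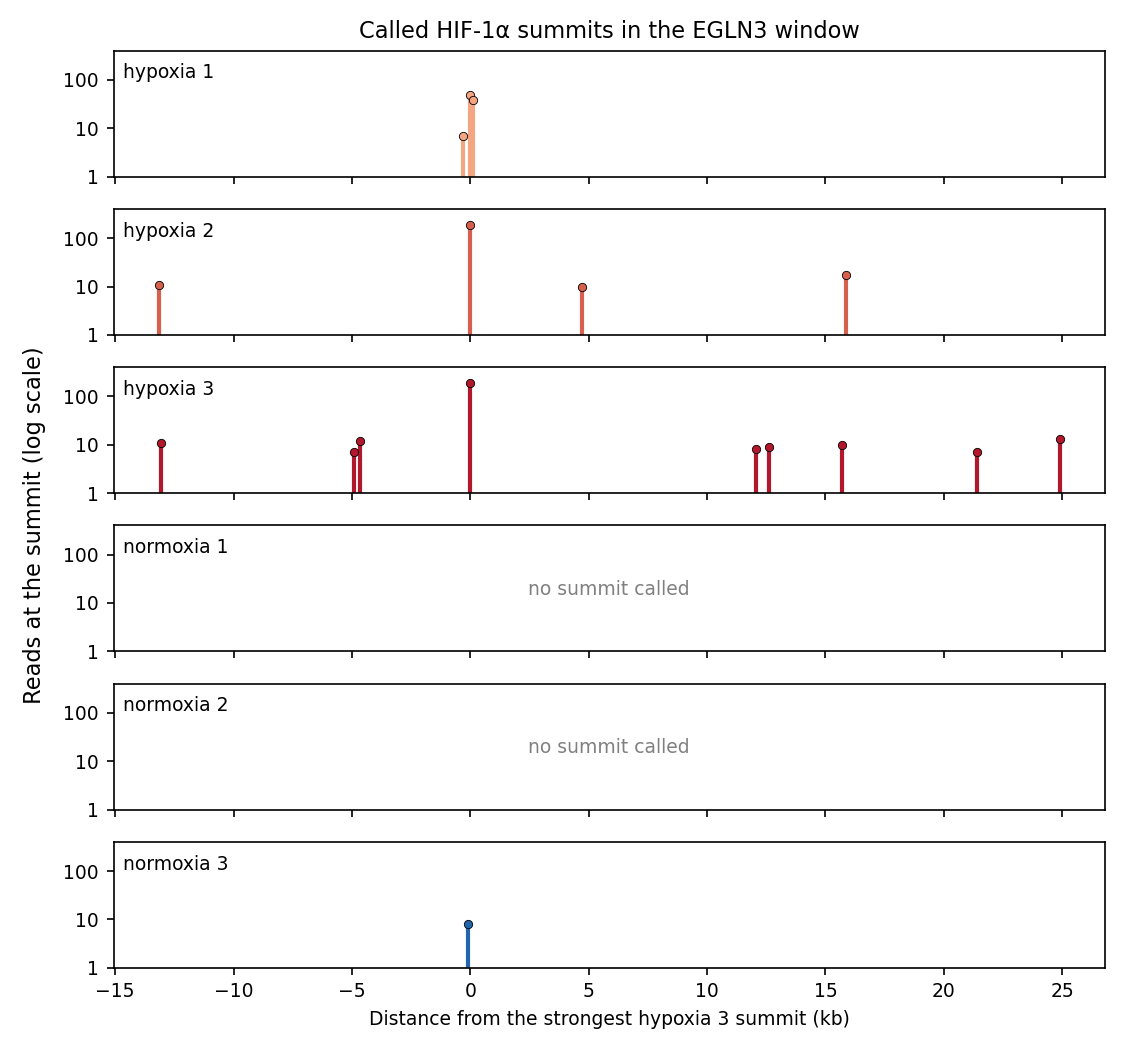
Every called summit in the EGLN3 window by library, from hypoxia 1 at the top to normoxia 3 at the bottom, as reads at the summit (log axis) against distance in kb from the strongest hypoxia 3 summit. A single site dominates in each hypoxia library, weaker summits surround it in hypoxia 2 and hypoxia 3, and normoxia 3 has 1 summit of 8 reads at that site.

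Beyond the window the nearest replicated hypoxia region at smaller coordinates lay 9462 kb away, and the nearest region of any hypoxia list 1133 kb away. At larger coordinates a region called in hypoxia 2 and hypoxia 3, chromosome 14: 34529440 to 34530162, lay 29.4 kb beyond the window. It had folds of 9.21 in hypoxia 2 and 14.3 in hypoxia 3, higher than at any of the weaker regions inside the window. The nearest protein-coding neighbours of EGLN3 in RefSeq (GRCh38.p14, used here and for the other genes for names only) are NPAS3 and SPTSSA. Without an hg19 annotation, exon, intron and distance to the gene start are not given for any site.

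EGLN1 encodes the prolyl hydroxylase known as the main oxygen sensor for HIF-1α in most cells. Its replicated region was chromosome 1: 231557775 to 231558128, 354 bp long. The fold there was 10.4 in hypoxia 2, from 28 reads, and 6.21 in hypoxia 3, from 15 reads, with no call in hypoxia 1 or in any normoxia library. The summits, 231558013 and 231558043, were 30 bp apart. The interval ranked 1166 of 5833 by fold in hypoxia 2 and 3737 of 7619 in hypoxia 3, above 80% and 51% of the list. Its reads per unit of depth were 4.72 in hypoxia 2 and 2.83 in hypoxia 3, a difference that has no replicate check within this pair of libraries.

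A second EGLN1 region, chromosome 1: 231558241 to 231558528, was called in hypoxia 3 alone. It had summits at 231558347 and 231558440 with folds of 3.7 and 2.95, from 11 and 13 reads, where local background was 2.53 and 4.22 times that of the whole library. The first of these stood 304 bp above the replicated hypoxia 3 summit. The number of summits in the EGLN1 window was 0, 1 and 3 in hypoxia 1, 2 and 3, against 0 in each normoxia library. Hypoxia averaged 1.33 ± 1.53 summits and normoxia 0 ± 0 (SD, n = 3 each; two-sided exact permutation p = 0.4), so the difference did not exceed the spread among hypoxia libraries. Without hypoxia 3 the difference in means was 0.5. SPRTN and TSNAX are the protein-coding neighbours of EGLN1. The nearest hypoxia region outside the window, 84.1 kb above it at chromosome 1: 231664109 to 231664605, was called in all 3 hypoxia lists.

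EGLN2, the third prolyl hydroxylase, is not known as a strong hypoxia target. Its 40 kb window had no summit in any of the 6 libraries. That the window covers EGLN2 was not checked, so the count of 0 holds for these coordinates. The nearest region of any hypoxia list lay 341 kb below the window and 486 kb above it, and the nearest replicated ones 813 kb and 499 kb away. A site under the number of reads needed for a call would not be seen in these lists, so weak binding at EGLN2 was not detectable rather than shown to be absent. RAB4B and CYP2A6 are its protein-coding neighbours.

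HIF1AN encodes FIH, and its window held 2 regions, both called in hypoxia 2 and hypoxia 3. At chromosome 10: 102289453 to 102289969 the fold was 6.75 in hypoxia 2, from 22 reads, and 8.41 in hypoxia 3, from 20 reads. Summits there were 20 bp apart, and reads per unit of depth were 3.71 in hypoxia 2 and 3.77 in hypoxia 3, close to each other. At chromosome 10: 102321791 to 102322111 the fold was 5.21 in hypoxia 2, from 9 reads, and 5.83 in hypoxia 3, from 10 reads, with summits 124 bp apart. The regions stood 32.2 kb from each other in hypoxia 2 and 32.3 kb in hypoxia 3.

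The stronger HIF1AN region exceeded 52.5% of the hypoxia 2 list and 72.6% of the hypoxia 3 list by fold, and the weaker one 25.2% and 43%. Neither had a call in hypoxia 1 or in a normoxia library. Summits numbered 0, 2 and 2 in hypoxia 1, 2 and 3, against 0 in each normoxia library. Hypoxia libraries averaged 1.33 ± 1.15 summits and normoxia libraries 0 ± 0 (SD, n = 3 each; two-sided exact permutation p = 0.4). The protein-coding neighbours of HIF1AN are NDUFB8, a subunit gene of respiratory complex I, and PAX2, a developmental transcription factor gene. Which of these genes a region lies nearest to was not measured.

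VHL encodes the part of the ubiquitin ligase that recognises hydroxylated HIF-α. Its window held 1 region, chromosome 3: 10210868 to 10211071, called in hypoxia 3 alone with 10 reads and a fold of 5.83, above 43% of that list. The summit counts were 0, 0 and 1 in hypoxia 1, 2 and 3, against 0 in each normoxia library (two-sided exact permutation p = 1). A replicated region lay just outside, at chromosome 3: 10157055 to 10157422, 2.58 kb below the window. It had folds of 9.37 in hypoxia 2, from 17 reads, and 12.7 in hypoxia 3, from 23 reads, more than the region inside. This outside region is counted for no gene under the windows as set. BRK1 and IRAK2 are the protein-coding neighbours of VHL. Whether either region lies in or nearest to VHL or a neighbour was not measured.

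**Figure D4:**
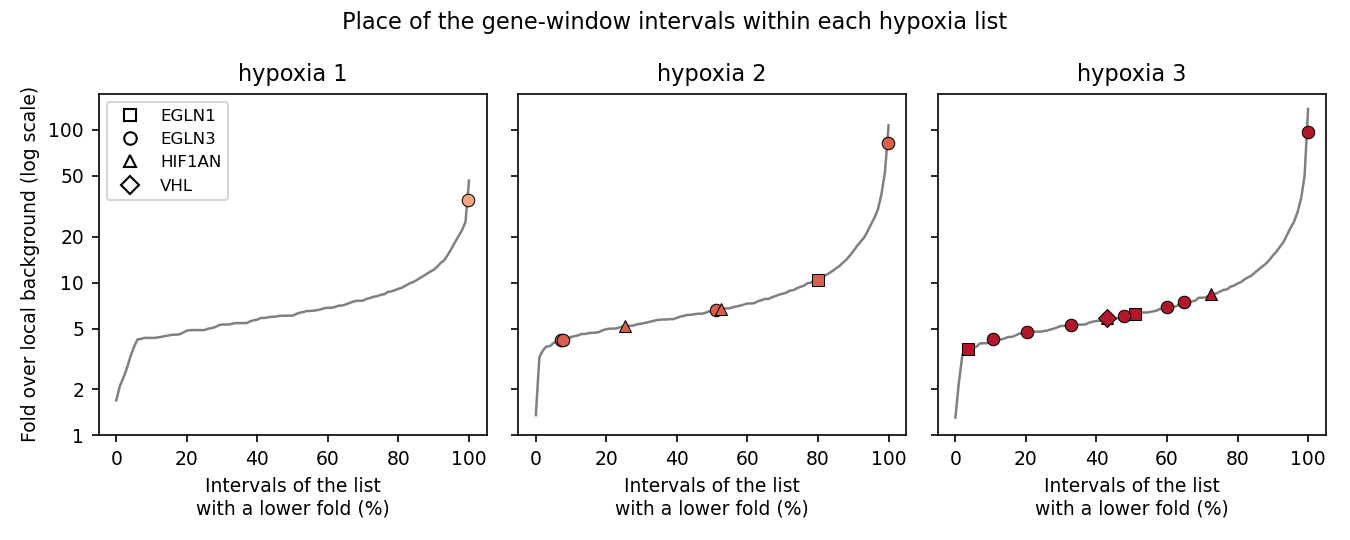
Fold of each interval in the gene windows (log axis; marker shape gives the gene) against the share of its hypoxia list with a lower fold, with the whole list as a grey line, for hypoxia 1, 2 and 3 from left to right. The strongest EGLN3 site stands near the top of each list, while the others lie between 3.6% and 80%. In hypoxia 3 a marker each of EGLN3, HIF1AN and VHL overlie at 43%.

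The absence of EGLN1 and HIF1AN calls in hypoxia 1 can be set beside the share of like intervals that it called. Of hypoxia 2 intervals with reads within 2 of the 28 at EGLN1, 38.6% of 290 were also called in hypoxia 1, and of those within 2 of the 22 at the stronger HIF1AN region, 24.3% of 527. For the hypoxia 3 reads at these sites, 15 at EGLN1 and 20 at HIF1AN, the shares were 4.99% of 1883 and 11.8% of 815. At 10 reads, the level of VHL and of the weaker HIF1AN region in hypoxia 3, the share was 1.37% of 2914. At each of these levels, most intervals with like reads lacked a hypoxia 1 call. Local background was not matched, and why hypoxia 1 had no call at these sites was not tested.

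Replication in the EGLN1 and HIF1AN windows therefore rested on hypoxia 2 and hypoxia 3, the pair of libraries with a long extension. 3 of the 5 windows, those of EGLN3, EGLN1 and HIF1AN, held a region called in at least 2 hypoxia lists. Whether these regions belong to the named gene or to a neighbour was not measured. Without hypoxia 2, or without hypoxia 3, the EGLN3 window was the only one of the 5 with a region called in both remaining lists. The part that extension plays in this was not tested.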

How the data were processed

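HIF-1α ChIP-seq peak lists of 6 libraries were used, 1 list per library and not pooled. Reads were handled with BWA 0.7.17 and MACS2 on hg19, per the submitters' processing notes; which MACS2 version, settings or duplicate filter was used is not given in the sources used here. Deposited lists hold a score, which is 10 times the −log10 q cut to a whole number, a fold, which is the ratio of reads to local background at the summit with 1 added to each, and −log10 p and −log10 q values from the authors' peak caller. The number of sequenced reads is not in these lists.

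Whole reads and local background were recovered from fold and p within 0.001 of the −log10 p, in 100% of summits, by code tested on simulated data. The smallest local background of a list over its shortest interval, taken as the extension, gave its depth. Intervals on chromosomes 1 to 22, X and Y that share at least 1 bp were joined into regions; ranks use each interval's summit of smallest p, and replicated means called in at least 2 lists of a group. Groups and replicate numbers came from the sample titles. Two-sided exact permutation tests compared 3 hypoxia with 3 normoxia libraries, with no p adjusted over genes. Equal windows tiled over each chromosome, up to its last interval end, and all regions gave the background shares. All 5 genes are named by rule. Members and lists were chosen with earlier results of these data known. Alternatives were stricter q or fold, low local background, lists of equal length, wider windows, interval overlap, summit linking, leaving out each library and a replicate block. Python 3.11.15, numpy 2.4.6, pandas 2.3.3 and scipy 1.17.1 were used.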

Additional observations from a re-analysis of the deposited data

How the results depend on the processing

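At EGLN3 the excess of hypoxia over normoxia summits (5 in the mean) kept its sign under all 15 alternatives, between 1.33 with lists no longer than the shortest hypoxia list and 6.33 with windows widened by 50 kb; it was 3.17 to 6.17 when any 1 library was dropped. EGLN2 stayed at 0 under all of them. The EGLN3 difference in the share of libraries with a call was 0.667 and lay between 0.5 and 1 over 14 alternatives. It was 1 without normoxia 3, at a −log10 q of at least 5 and with the 32 best intervals of each list. At that q and with those 32 intervals the normoxia 3 call was lost. With the 32 best intervals of each list, the difference in libraries and in summits was 0 at EGLN1, HIF1AN and VHL, and with the 1408 best it was 0 at HIF1AN and VHL; shorter lists hold fewer weak sites by construction. At VHL both differences were also 0 at a fold of at least 6, and with 1 library left out they lay between 0 and 0.5. Gene windows with a replicated hypoxia region numbered 3, and 1 with the best 1408 or 32 intervals or when all 3 hypoxia lists had to call it. With 1 library left out they numbered 1 to 3. Replicated regions in the windows numbered 6, 3 at a fold of at least 6, 1 in those stricter settings, and 1 to 6 with 1 library left out. Widening by 50 kb gave 4 windows with a replicated region and 8 such regions, and at VHL the differences became 1 summit and 0.667 of libraries. With any 1 library dropped, summit differences ranged over 0.5 to 2 at EGLN1 and 1 to 2 at HIF1AN. Counting each interval once was chosen after seeing the data. With the replicate number as a block the differences were the same, 5 summits at EGLN3 (exact sign-flip permutation p = 0.25, the smallest that 3 pairs allow). The labels give only numbers, so the numbers were not taken to pair libraries. Deviations over 9420 regions correlated at 0.00356 to 0.0649 for same-numbered libraries and at -0.0710 to 0.0318 for different-numbered ones. Only 1.46% of the regions had a normoxia call, so these correlations cannot decide whether libraries were paired. The 5.79-fold ratio of reads at EGLN3 was 6.13 without depth correction. Depth of 5.31 to 6.69 background reads per kb limits what can be seen at weak sites.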
